A study of Homo sapiens with 16 samples.

Results

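The SLC25 genes code for the mitochondrial carriers, and the genes described here are those with a symbol made of SLC25A and a number. The U251 tables held 41 of them among 20314 genes and the U343 tables held 42 among 20626, so that 42 genes were followed over 16 libraries. SLC25A22 was analysed in U343 only.

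Mitochondrial carriers are membrane proteins, most of them in the inner mitochondrial membrane, that exchange or cotransport nucleotides, phosphate, organic acids, amino acids, cofactors and iron-linked substrates between the cytosol and the matrix. They are coded in the nucleus, made on cytosolic ribosomes and inserted by the TIM22 machinery. The ADP/ATP and phosphate carriers supply oxidative phosphorylation with its substrates, and the aspartate/glutamate, oxoglutarate and dicarboxylate carriers link mitochondrial and cytosolic metabolism in glial and neuronal cells.

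U251 and U343 are established human glioblastoma cell lines. Both were reverse transfected with Lipofectamine RNAiMAX, and every cell culture received a mimic at 25 nM, either of miR-137 or of a control miRNA, and was collected after 48 hours. RNASeq measured total RNA, whereas RIPSeq measured the RNA recovered with a mixture of antibodies to the poly(A) binding protein PABP, and the question was which transcripts lose reads in either assay after miR-137. Each of the 4 experiments (2 cell lines by 2 assays) had 2 control and 2 miR-137 libraries, all made after rRNA depletion. The U251 libraries were made with random-hexamer priming and a Nextera kit and the U343 libraries with a TotalScript Nextera kit, so cell line and kit cannot be told apart. The labels do not say that replicates came from separate cultures, and the p-values measure only the spread between these libraries, which may be technical.

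The transfected miRNA is shown because its seed, bases 2 to 8, is the part that pairs with target transcripts. The mature sequence is that of RefSeq (GRCh38.p14, chr1:98046091-98046113, minus strand), 23 bases long, with the seed in capitals.
hsa-miR-137-3p: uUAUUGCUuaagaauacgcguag

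Depth was 10156675 to 18224061 counted reads per library in U251 RNASeq, 22359794 to 30731476 in U251 RIPSeq, 37952273 to 45134766 in U343 RNASeq and 37736206 to 45055184 in U343 RIPSeq. In U251 RNASeq depth went with transfection, at 16886287 and 18224061 reads in the controls and 10260834 and 10156675 after miR-137. The part of this difference in the calls was not tested. VIM, from a list of glial and glioma markers, was at 3631 to 7821 CPM (reads scaled to library size) in U251 and 5759 to 9505 CPM in U343. GFAP, a marker of astrocytes, was at 3.64 to 29.5 CPM and 3145 to 7370 CPM. OLIG2, a marker of the oligodendrocyte lineage, was at or near 0 in both lines. In U251 the summed level of this list, mostly VIM, was 7483 to 8305 CPM in the controls and 3915 to 4666 CPM after miR-137. In U343 the sum was 11078 to 14818 CPM over all libraries. The part of the U251 difference in the U251 results was not tested. Leukocyte markers summed to at most 4.47 CPM in U251 and 1.22 CPM in U343, endothelial markers to at most 3.26 and 38.3 CPM, and neuronal markers to at most 66.0 and 9.06 CPM. A list of 12 interferon-induced genes summed to 128 to 320 CPM in the control libraries and 9685 to 14195 CPM in 7 of the 8 miR-137 libraries, but to 282 CPM in U343 RNASeq miR-137 replicate 1. Pairs of replicates differed by a mean chi-square of 2.46 to 21.9 per gene, except the U251 RIPSeq controls at 216 and the U343 RNASeq miR-137 libraries at 175. These 4 libraries stand apart from their partners, and the larger changes of members that rest on them are given with and without them.

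The members together took a smaller share of all counted reads after miR-137 in each experiment. In U251 RNASeq they held 0.204 and 0.217% of the reads in the controls and 0.187 and 0.201% after miR-137, and in U251 RIPSeq 0.240 and 0.238% against 0.208 and 0.209%. In U343 RNASeq the shares were 0.335 and 0.347% against 0.252 and 0.232%, and in U343 RIPSeq 0.337 and 0.344% against 0.229 and 0.231%. Every miR-137 library was below both controls of its experiment, and no test was made of this sum.

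A pair of carriers, the ADP/ATP carrier SLC25A5 and the phosphate carrier SLC25A3, held 33.4 to 48.9% of the family's reads in the controls and 20.7 to 31.4% after miR-137. The other members together held 0.132 and 0.136% of all reads in the U251 RNASeq controls and 0.149 and 0.153% after miR-137. In U251 RIPSeq these shares were 0.144 and 0.159% against 0.159 and 0.160%, the lowest miR-137 library lying just above the higher control. The U343 RNASeq shares were 0.175 and 0.177% against 0.176 and 0.159%, and the U343 RIPSeq shares 0.191 and 0.197% against 0.173 and 0.176%. The sum of the other members thus stood higher after miR-137 in both U251 experiments and lower in U343 RIPSeq, with overlapping groups in U343 RNASeq. Read shares also depend on transcript length, so they do not rank the carriers by transcript number.

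**Figure D1:**
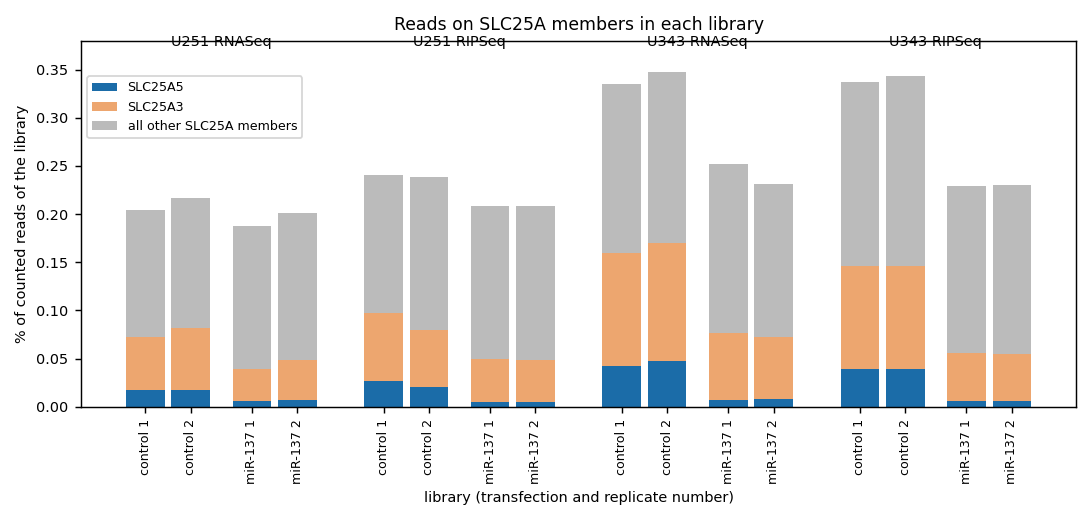
Stacked bars give the percentage of all counted reads held by SLC25A5, SLC25A3 and the other SLC25 members in each of the 16 libraries. In U343 RIPSeq SLC25A5 takes 0.0390% of reads in both controls and 0.00586 and 0.00621% after miR-137.

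For the comparisons, each table was tested as a whole with edgeR, and CPM below are scaled with the TMM factors of the comparison they belong to. A member is called lower or higher when its Benjamini-Hochberg adjusted p over all genes tested is under 0.05. Counts of members at an unadjusted p under 0.05, or called by the alternative test DESeq2, are given without the share of all genes at that setting. They are not read as a result about the members. Values are relative to the rest of the library, and in bulk RNA fewer cells of a kind and less RNA per cell cannot be told apart.

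In U251 RNASeq 38 members passed the filter on low counts, and 16 were lower and 9 higher after miR-137, where 29% of all genes tested were called lower and 28.7% higher. The median log2 change was -0.25 over the members and 0.02 over all genes. U343 RIPSeq gave 18 lower and 7 higher of 39 members tested, beside 27.8% and 28.5% of all genes, with medians of -0.21 and 0.00. The members' share of lower calls in these 2 experiments was above that of all genes and their share of higher calls below it, and no test of the list was made.

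In U343 RNASeq 6 of 39 members were lower and 2 higher, beside 11.7% and 8.31% of all genes, with a median of -0.18 against 0.02. Those counts depended on single libraries. They rose without either miR-137 replicate, and no call was left without either control in turn. In U251 RIPSeq edgeR called 1 of 38 members lower and 0 higher, beside 0.263% and 0.944% of all genes. There 10 members had an unadjusted p under 0.05, DESeq2 called 2 lower and 1 higher, and the medians were -0.20 and -0.02. The U251 RIPSeq counts rose without either control, and no call was left without either miR-137 library. With 1 control left out, the spread comes from the 2 miR-137 libraries alone, which were the most alike of all pairs (mean chi-square 2.46 per gene). The shares of all genes called in such fits were not compared, so the rise is not read as a result about the members.

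The sizes of the U251 RIPSeq changes also depended on the control left out. Without control replicate 1 or 2 the log2 change was -2.11 or -2.19 for SLC25A5, -0.63 or -0.59 for SLC25A3, -1.16 or -1.55 for SLC25A10, 1.12 or 0.98 for SLC25A37 and 0.89 or 1.17 for SLC25A44. It was -1.05 or -0.56 for SLC25A15, -1.42 or -0.57 for SLC25A33 and 2.24 or 1.26 for SLC25A28. All of these kept their sign, although only SLC25A5 was called there. Other members, also not called there, did not keep theirs: SLC25A40 was at -1.47 or 0.20 and SLC25A21 at -0.52 or 1.43. SLC25A27 went from -0.31 to 0.11 without control replicate 1. In U343 RNASeq, without miR-137 replicate 1 or 2, the log2 change was -1.48 or -1.14 for SLC25A10, -1.14 or -1.55 for SLC25A40 and -0.89 or -0.44 for SLC25A15. It was -0.82 or -0.78 for SLC25A3, 1.09 or 1.05 for SLC25A22 and 0.43 or 0.68 for SLC25A20.

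Across the 4 experiments 34 of the 40 members tested at least once were called at least once (85%), where 69.9% of all genes tested at least once were. Of all genes 31.3% were only ever lower, 33% only ever higher and 5.65% both. Of the members 21 (52.5%) were only ever lower, 9 (22.5%) only ever higher, and 4 (SLC25A12, SLC25A20, SLC25A36 and SLC25A45) lower in one experiment and higher in another. Of the 37 members tested in all 4, 10 had a negative log2 change throughout (SLC25A3, SLC25A5, SLC25A10, SLC25A11, SLC25A15, SLC25A16, SLC25A33, SLC25A39, SLC25A40 and SLC25A42) and 3 a positive one (SLC25A25, SLC25A28 and SLC25A44). The shares of all genes that kept a sign throughout were not counted, so these numbers are not read as a trait of the family. Of the members, SLC25A5 alone was called lower in all 4 experiments, and SLC25A3, SLC25A10 and SLC25A40 were called lower in both U343 experiments and in U251 RNASeq. No member was called higher in more than 2 experiments. How many of all genes were called in as many experiments was not counted. U251 RIPSeq, where 0.263% of all genes were called lower, limits the calls over all 4.

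**Figure D2:**
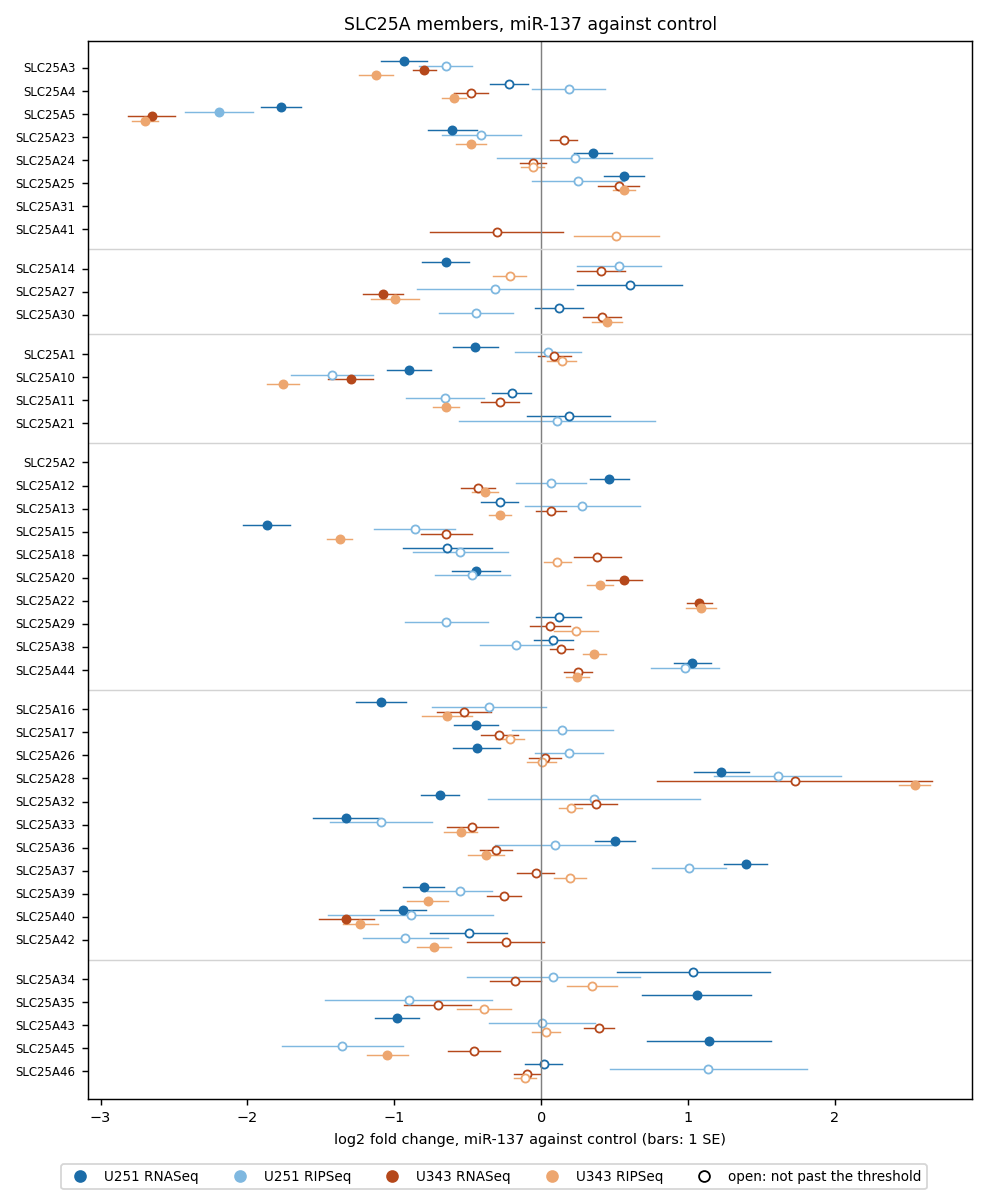
The log2 change after miR-137 of members tested is plotted for each of the 4 experiments, ordered by role, with members past the edgeR threshold marked. SLC25A5 lies at -1.77, -2.19, -2.65 and -2.70, and members of every role lie on both sides of 0 in at least 1 experiment.

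The carriers of adenine nucleotides and phosphate exchange ADP for ATP, or ATP-Mg for phosphate, or import phosphate. In U251 RNASeq 3 of the 6 tested were lower and 2 higher, and in U343 RIPSeq 4 of 7 were lower and 1 higher. U343 RNASeq had 2 of 7 lower and 0 higher, and U251 RIPSeq 1 of 6 lower and 0 higher. Of all genes tested, 29% were called lower and 28.7% higher in U251 RNASeq, and 27.8% and 28.5% in U343 RIPSeq. The shares were 11.7% and 8.31% in U343 RNASeq and 0.263% and 0.944% in U251 RIPSeq. Each role holds few genes, and no test of a role was made here or below. The median log2 changes were -0.41 in U251 RNASeq, -0.11 in U251 RIPSeq, -0.30 in U343 RNASeq and -0.48 in U343 RIPSeq.

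SLC25A5 (hg18 chrX:118486391-118489385) is an ADP/ATP carrier of proliferating cells, also known as ANT2. In U251 RNASeq it was at 189 CPM in both controls (2965 and 3086 reads) and at 50.4 and 60.3 CPM after miR-137 (558 and 679 reads). In U251 RIPSeq it was at 252 and 224 CPM against 52.3 and 51.9 CPM. In U343 it was at 417 and 477 CPM against 63.7 and 78.5 CPM in RNASeq, and at 389.9 and 391 CPM against 60.7 and 59.8 CPM in RIPSeq. In each experiment both miR-137 libraries were far below both controls, including U343 RNASeq miR-137 replicate 1, in which the interferon list was at the control level. The part of the interferon genes in the SLC25A5 result was not tested.

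SLC25A5 fell 3.42-fold in U251 RNASeq (log2 change -1.77, SE 0.14, edgeR adjusted p = 2.11e-07) and 6.48-fold in U343 RIPSeq (-2.70, SE 0.09, adjusted p = 9.52e-07). The change was -2.65 (SE 0.16, adjusted p = 0.00647) in U343 RNASeq, and -2.52 without miR-137 replicate 1 and -2.81 without miR-137 replicate 2. In U251 RIPSeq it was -2.19 (SE 0.23, edgeR adjusted p = 0.0392), with an adjusted p of 0.0721 when low counts were not filtered and of 0.647 and 0.654 without miR-137 replicate 1 or 2. Without control replicate 1 or 2 the U343 RNASeq call was also lost (adjusted p = 0.151 and 0.17), as was every other call of a member there. RefSeq (GRCh38.p14) names 9 pseudogenes after SLC25A5, more than after any other member, and how reads shared with them were counted is not given in the sources used here. Its hg18 interval also overlaps LOC100303728 over 721 bases.

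The close paralogue SLC25A4, the ADP/ATP carrier of heart and muscle, changed less. It was called lower in U343 RIPSeq, at 84.3 and 83.1 CPM in the controls and 57.7 and 53.0 CPM after miR-137 (log2 change -0.60, edgeR adjusted p = 0.000609). Its changes of -0.22 in U251 RNASeq, 0.19 in U251 RIPSeq and -0.48 in U343 RNASeq did not pass the threshold. SLC25A31, the ADP/ATP carrier of the testis, had 0 to 4 reads per library and was not tested.

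SLC25A3 (hg18 chr12:97511534-97519908), which imports phosphate, held the most reads of the family. It was at 593 and 717 CPM in the U251 RNASeq controls and 308 and 379 CPM after miR-137, and at 676 and 651 CPM against 424 and 421.5 CPM in U251 RIPSeq. In U343 it was at 1148 and 1222 CPM against 690.5 and 675 CPM in RNASeq, and at 1071 and 1080 CPM against 521 and 465 CPM in RIPSeq. The miR-137 libraries were below the controls in all 4 experiments. The log2 changes were -0.93 (edgeR adjusted p = 0.000197), -0.65 (0.163), -0.80 (0.00943) and -1.12 (0.000131) in that order.

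The ATP-Mg/phosphate carriers, which set the adenine nucleotide content of the matrix, did not move together. SLC25A25 (hg18 chr9:129870300-129911345) was at 39.7 and 34.4 CPM against 57.1 and 52.3 CPM in U251 RNASeq (log2 change 0.56, edgeR adjusted p = 0.00310), and at 43.0 and 43.7 CPM against 63.5 and 64.7 CPM in U343 RIPSeq (0.56, adjusted p = 0.000556). SLC25A23 (hg18 chr19:6391075-6410781) was at 13.9 and 15.1 CPM against 8.93 and 10.1 CPM in U251 RNASeq (-0.60, adjusted p = 0.00793, and 0.0529 without miR-137 replicate 1), and at 96.6 and 96.1 CPM against 75.3 and 63.2 CPM in U343 RIPSeq (-0.48, adjusted p = 0.00481). Neither pair of groups overlapped, and the paralogues were called in opposite directions in both experiments. SLC25A24 was called higher in U251 RNASeq at 0.35 and had -0.06 in both U343 experiments.

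**Figure D3:**
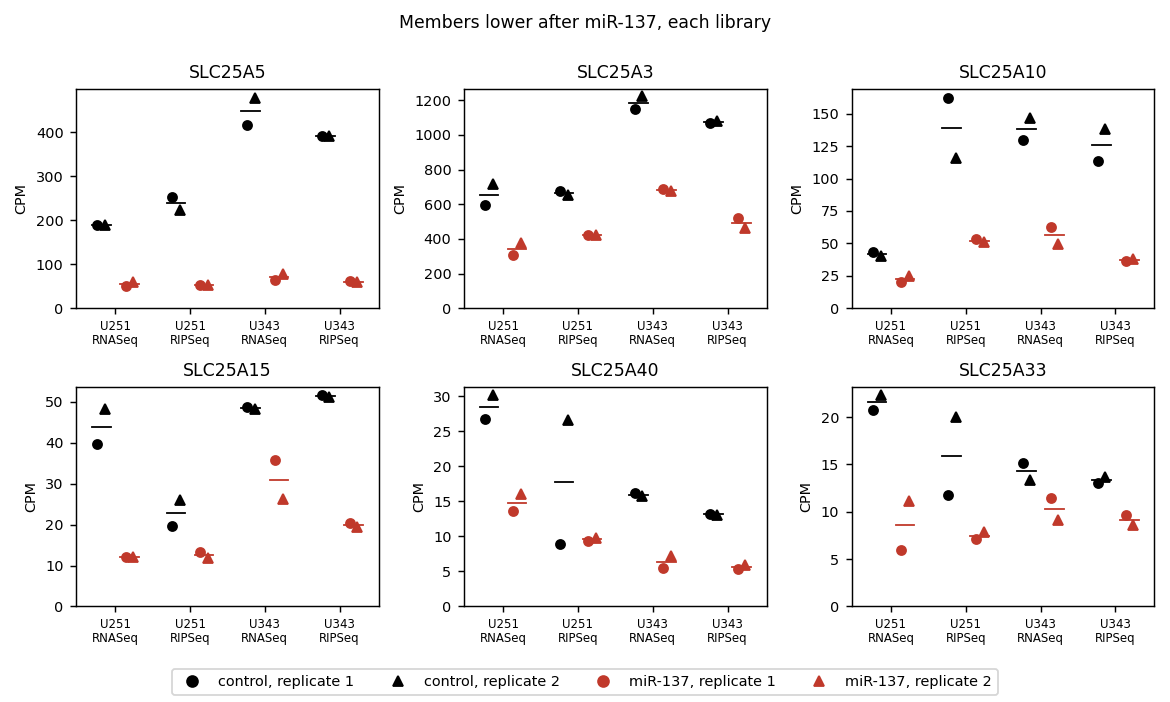
Points give the scaled CPM in every library of SLC25A5, SLC25A3, SLC25A10, SLC25A15, SLC25A40 and SLC25A33, by experiment and transfection. Both miR-137 libraries of SLC25A5 lie below both controls in each experiment, while the U251 RIPSeq controls of SLC25A40 lie at 8.92 and 26.6 CPM, on both sides of the miR-137 libraries.

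The carboxylate carriers move citrate, malate, oxoglutarate and other organic acids. In U251 RNASeq 2 of 4 were lower, in U343 RIPSeq 2 of 3, in U343 RNASeq 1 of 3 and in U251 RIPSeq 0 of 4 (1 with an unadjusted p under 0.05), and none was called higher by edgeR. In that order 29%, 27.8%, 11.7% and 0.263% of all genes were lower, and 28.7%, 28.5%, 8.31% and 0.944% higher. SLC25A1, the citrate carrier, fell by 0.45 on the log2 scale in U251 RNASeq, and SLC25A11, the oxoglutarate carrier, fell by 0.65 in U343 RIPSeq. SLC25A21, the oxoadipate carrier, had 16 to 70 reads in the U251 libraries and 0 to 3 in the U343 libraries, where it could not be tested.

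SLC25A10 (hg18 chr17:77289776-77298447) exchanges dicarboxylates such as malate and succinate for phosphate. It was at 43.4 and 40.6 CPM in the U251 RNASeq controls and 19.9 and 24.9 CPM after miR-137, and at 162 and 116 CPM against 53.0 and 50.8 CPM in U251 RIPSeq. In U343 it was at 129.6 and 147 CPM against 62.5 and 49.8 CPM in RNASeq, and at 114 and 138 CPM against 36.3 and 37.9 CPM in RIPSeq. The groups were separate in every experiment. The fall was called at -0.90 in U251 RNASeq (edgeR adjusted p = 0.000190), -1.30 in U343 RNASeq (0.0126) and -1.76 in U343 RIPSeq (1.40e-05), and the -1.42 of U251 RIPSeq had an adjusted p of 0.103.

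The amino acid and acylcarnitine carriers were mixed in direction. U343 RIPSeq had 3 of 9 lower and 4 higher, U251 RNASeq 2 of 8 lower and 2 higher, and U343 RNASeq 0 lower and 2 higher. These stand beside 27.8% and 28.5%, 29% and 28.7%, and 11.7% and 8.31% of all genes. U251 RIPSeq had 0 of 8 called in edgeR and 2 with an unadjusted p under 0.05.

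SLC25A15 (hg18 chr13:40261547-40284595), the ornithine carrier of the urea cycle, was among the most reduced. It was at 39.7 and 48.3 CPM in the U251 RNASeq controls and 12.1 and 12.0 CPM after miR-137, and at 51.7 and 51.1 CPM against 20.3 and 19.5 CPM in U343 RIPSeq. The log2 changes were -1.87 (edgeR adjusted p = 5.33e-07) and -1.37 (adjusted p = 1.27e-05). In U251 RIPSeq it was at 19.7 and 26.0 CPM against 13.3 and 11.9 CPM, and in U343 RNASeq at 48.8 and 48.3 CPM against 35.8 and 26.3 CPM, with edgeR adjusted p-values of 0.195 and 0.0673. RefSeq names 5 pseudogenes after it, and its hg18 interval overlaps SUGT1L1 and MIR621.

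SLC25A44 (hg18 chr1:154430354-154449210), which imports branched-chain amino acids, rose. In U251 RNASeq it was at 53.2 and 57.1 CPM in the controls and 117 and 108 CPM after miR-137 (log2 change 1.03, edgeR adjusted p = 1.57e-05). The U343 RIPSeq values were 66.0 and 64.9 CPM against 76.7 and 78.5 CPM (0.25, adjusted p = 0.0259), and the adjusted p was 0.0572 in DESeq2 and 0.0655 to 0.127 in edgeR with any 1 library left out. Its groups were also separate in U251 RIPSeq, at 65.6 and 74.6 CPM against 136 and 140 CPM, without passing the threshold (0.98, edgeR adjusted p = 0.133).

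SLC25A22 (hg18 chr11:780475-786221), a glutamate carrier, rose in both U343 experiments. It was at 55.0 and 54.9 CPM in the RNASeq controls and 114 and 118 CPM after miR-137, and at 85.2 and 91.8 CPM against 202 and 174 CPM in RIPSeq. The log2 changes of 1.08 and 1.09 had edgeR adjusted p-values of 0.00735 and 9.33e-05. In RNASeq the level after miR-137 was alike in the replicate with and the replicate without the rise of interferon genes. The part of the interferon genes in the SLC25A22 result was not tested. The glutamate carrier SLC25A18 passed the threshold in neither line.

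SLC25A20, the carnitine-acylcarnitine carrier that brings fatty acids to oxidation, was called in opposite directions in the 2 lines. It was at 16.5 and 19.7 CPM against 13.4 and 13.2 CPM in U251 RNASeq (-0.44, edgeR adjusted p = 0.0305), and at 24.1 and 23.9 CPM against 38.6 and 32.5 CPM in U343 RNASeq (0.56, adjusted p = 0.0447). U343 RIPSeq gave 26.6 and 28.4 CPM against 37.2 and 35.2 CPM (0.40, adjusted p = 0.00603). The U251 call was lost in DESeq2 (adjusted p = 0.0943) and without control replicate 2 or either miR-137 library (0.0742 to 0.213), and the U343 RNASeq call without either control (0.299 and 0.315). SLC25A12, an aspartate/glutamate carrier, was higher in U251 RNASeq (0.46) and lower in U343 RIPSeq (-0.38), and its paralogue SLC25A13 was lower in U343 RIPSeq only (-0.28).

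The carriers of cofactors, nucleotides, glutathione and iron were the largest group. Of the 12 tested in each experiment, 7 were lower and 3 higher in U251 RNASeq, beside 29% and 28.7% of all genes. In U343 RIPSeq 7 were lower and 1 higher, beside 27.8% and 28.5%, and in U343 RNASeq 2 and 0, beside 11.7% and 8.31%. In U251 RIPSeq 0 were called by edgeR and 4 had an unadjusted p under 0.05. The medians were -0.47, -0.46, -0.27 and -0.07 in that order.

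SLC25A39 and SLC25A40 import glutathione. SLC25A40 (hg18 chr7:87303354-87343604) was at 26.7 and 30.1 CPM in the U251 RNASeq controls and 13.6 and 16.0 CPM after miR-137, at 16.1 and 15.7 CPM against 5.44 and 7.24 CPM in U343 RNASeq, and at 13.3 and 13.1 CPM against 5.30 and 5.92 CPM in U343 RIPSeq. These log2 changes of -0.94, -1.33 and -1.23 had edgeR adjusted p-values of 0.000188, 0.0174 and 0.000102. In U251 RIPSeq the controls themselves were at 8.92 and 26.6 CPM and the miR-137 libraries at 9.38 and 9.82 CPM, so the groups overlapped, and the -0.89 (adjusted p = 0.447) turned to 0.20 without control replicate 2. SLC25A39 was called lower in U251 RNASeq (-0.80) and U343 RIPSeq (-0.77) and had -0.56 and -0.25 in the other experiments.

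The pyrimidine nucleotide carriers SLC25A33 and SLC25A36 differed in U251 RNASeq. SLC25A33 (hg18 chr1:9522115-9565418) was at 20.8 and 22.4 CPM in the controls and 5.96 and 11.2 CPM after miR-137 (log2 change -1.33, edgeR adjusted p = 0.000208), while SLC25A36 was at 73.2 and 62.5 CPM against 103 and 89.4 CPM (0.50, adjusted p = 0.00628). In U343 RIPSeq both were lower, SLC25A33 at 13.1 and 13.7 CPM against 9.66 and 8.66 CPM (-0.55, adjusted p = 0.00434) and SLC25A36 at 25.4 and 20.9 CPM against 18.7 and 17.0 CPM (-0.38, adjusted p = 0.0304).

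SLC25A16, linked to coenzyme A, was lower in U251 RNASeq (-1.09) and U343 RIPSeq (-0.64). SLC25A42, a coenzyme A carrier, was at 18.5 and 21.4 CPM against 11.4 and 12.6 CPM in U343 RIPSeq (log2 change -0.73, edgeR adjusted p = 0.00123).

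The mitoferrins SLC25A28 and SLC25A37, which import iron into the matrix, gave the largest rises called in U251 RNASeq (SLC25A37) and in U343 RIPSeq (SLC25A28). SLC25A37 (mitoferrin 1, hg18 chr8:23442308-23486008) was at 21.0 and 17.9 CPM in the U251 RNASeq controls and 53.6 and 48.6 CPM after miR-137, a log2 change of 1.39 (edgeR adjusted p = 3.41e-06). In U251 RIPSeq it was at 19.7 and 16.7 CPM against 37.9 and 35.1 CPM (1.00, adjusted p = 0.143). U343 gave 28.7 and 28.1 CPM against 25.4 and 29.9 CPM in RNASeq and 12.0 and 13.3 CPM against 15.0 and 13.9 CPM in RIPSeq. The groups were separate in both U251 experiments and overlapped in U343 RNASeq.

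SLC25A28 (mitoferrin 2, hg18 chr10:101360265-101370211) was at 7.35 and 10.1 CPM in the U251 RNASeq controls and 18.5 and 22.4 CPM after miR-137 (log2 change 1.23, edgeR adjusted p = 9.59e-05). In U343 RIPSeq it was at 11.5 and 13.7 CPM against 72.4 and 74.1 CPM, a 5.82-fold rise (2.54, adjusted p = 2.45e-06), and in U251 RIPSeq at 17.1 and 8.09 CPM against 36.8 and 40.1 CPM (1.61, adjusted p = 0.155). In U343 RNASeq the controls were at 14.6 and 14.5 CPM, miR-137 replicate 1 at 11.3 CPM (475 reads) and miR-137 replicate 2 at 84.8 CPM (3598 reads). The replicate without the rise was the one in which the interferon list summed to 282 CPM, against 13682 CPM in its partner. The U343 RNASeq change was 1.72 (SE 0.94, edgeR adjusted p = 0.257), 2.54 without replicate 1 (adjusted p = 1.82e-05) and -0.37 without replicate 2 (0.0532). The part of the interferon genes in the SLC25A28 result was not tested.

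**Figure D4:**
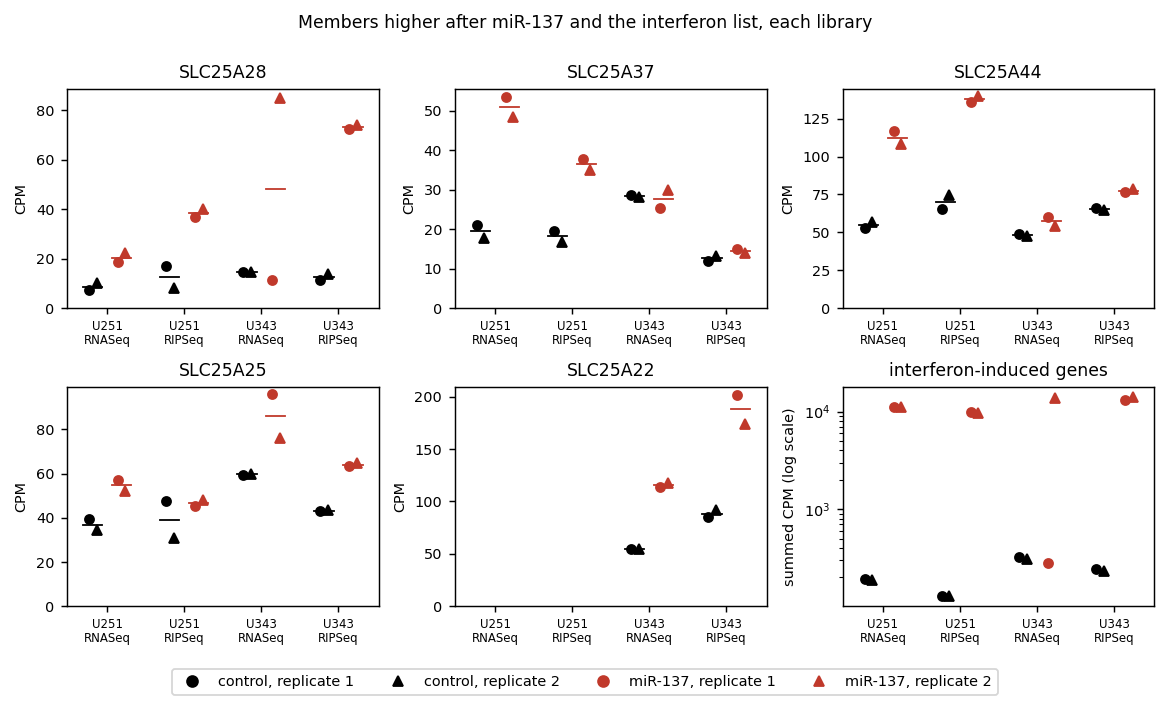
Points give the scaled CPM in every library of SLC25A28, SLC25A37, SLC25A44, SLC25A25 and SLC25A22, and the last panel the summed CPM of 12 interferon-induced genes on a log axis. In U343 RNASeq the miR-137 libraries of SLC25A28 lie at 11.3 and 84.8 CPM and those of the interferon genes at 282 and 13682 CPM.

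Windows of 300 bases around the gene starts (250 before and 50 after, RefSeq, GRCh38.p14) were searched for the interferon-stimulated response element (GAAA, any 2 bases, GAAA) on both strands. It was found in 3.57% of 35116 windows of all genes and in 1 of the 43 windows of the 34 members matched. The match is in 1 of the 4 windows of SLC25A22 and starts 100 bases before the start, and the window of SLC25A28 holds none. Both windows are printed for these rising members, from the minus strand in the direction of transcription, with the match in capitals, and the absence of the letters draws nothing about any factor.
SLC25A22 window, chr11:796189-796488: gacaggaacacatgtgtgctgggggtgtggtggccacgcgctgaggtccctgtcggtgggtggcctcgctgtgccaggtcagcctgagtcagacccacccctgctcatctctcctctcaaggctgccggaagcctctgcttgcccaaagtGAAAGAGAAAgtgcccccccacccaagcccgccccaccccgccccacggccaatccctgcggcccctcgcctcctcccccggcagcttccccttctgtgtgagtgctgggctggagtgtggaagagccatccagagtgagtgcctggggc
SLC25A28 window, chr10:99620390-99620689: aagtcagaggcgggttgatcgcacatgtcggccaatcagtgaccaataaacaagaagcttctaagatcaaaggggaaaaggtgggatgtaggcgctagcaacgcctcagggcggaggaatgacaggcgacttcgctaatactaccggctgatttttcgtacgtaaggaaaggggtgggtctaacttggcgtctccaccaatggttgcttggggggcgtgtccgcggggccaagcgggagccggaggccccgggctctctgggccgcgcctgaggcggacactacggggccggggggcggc
The motif of NRF1 (GCGCA, any base, GCGC, on either strand), a regulator of nuclear genes for mitochondrial proteins, was in 5.78% of all windows and in 3 of the members' 43, those of SLC25A3, SLC25A11 and SLC25A31.

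The uncoupling-protein-like carriers SLC25A14, SLC25A27 and SLC25A30 are related to the proton-leak protein UCP1. In U251 RNASeq 1 of the 3 was lower, beside 29% of all genes, and in U343 RNASeq 1, beside 11.7%. In U343 RIPSeq 1 was lower and 1 higher, beside 27.8% and 28.5%. In U251 RIPSeq edgeR called 0, with 0 at an unadjusted p under 0.05. SLC25A27 (UCP4, of neural tissue) was at 12.2 and 12.9 CPM in the U343 RNASeq controls and 6.13 and 5.78 CPM after miR-137 (log2 change -1.08, edgeR adjusted p = 0.0142), and at 5.32 and 5.48 CPM against 2.43 and 2.99 CPM in U343 RIPSeq (-0.99, adjusted p = 0.00145). In U251 it had 13 to 24 reads per library. SLC25A14 (UCP5) was lower in U251 RNASeq (-0.65) and SLC25A30 higher in U343 RIPSeq (0.45).

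Of the 5 carriers with another or no settled substrate, 1 was lower and 2 higher in U251 RNASeq, beside 29% and 28.7% of all genes. In U343 RIPSeq 1 was lower, beside 27.8%. There were 0 called by edgeR in U343 RNASeq and U251 RIPSeq, where 2 and 1 had an unadjusted p under 0.05. SLC25A43 was at 28.0 and 31.8 CPM against 15.8 and 14.5 CPM in U251 RNASeq (-0.98, adjusted p = 0.000106), and had 0.39 in U343 RNASeq and 0.03 in U343 RIPSeq. SLC25A45 had 9 reads in each U251 RNASeq control and 15 and 13 after miR-137 (called higher), and 332 and 305 reads against 133 and 148 in U343 RIPSeq (-1.05, adjusted p = 0.000488, called lower). SLC25A35 was also called higher in U251 RNASeq on 12 and 14 reads against 21 and 17 (1.06, adjusted p = 0.0251), and its hg18 interval overlaps RANGRF over 1417 bases. Leaving out any 1 of the U251 RNASeq libraries ended that call of SLC25A35 (adjusted p = 0.0522 to 0.185).

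The study's own rule asked for a fall with an odds ratio over 2 at an adjusted p under 0.001 in Fisher's exact tests. It had to hold in all 4 control and miR-137 pairs, with no term for how far replicates differ. The study describes the rule for falls only, and it was mirrored here to call members higher. In U251 RNASeq it called SLC25A5 and SLC25A15 lower and SLC25A28, SLC25A37 and SLC25A44 higher, 2 and 3 members, beside 2.21% and 6.14% of all genes. In U251 RIPSeq it called SLC25A5 lower and SLC25A28 and SLC25A44 higher, beside 1.49% and 3.47%. In U343 RNASeq 4 members were lower (SLC25A5, SLC25A10, SLC25A27 and SLC25A40) and SLC25A22 higher, beside 2.88% and 1.51%. In U343 RIPSeq 5 were lower (SLC25A3, SLC25A5, SLC25A10, SLC25A15 and SLC25A40) and SLC25A28 higher, beside 3.4% and 4.83%.

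PABP-bound and total RNA of the control-transfected cells were compared to see how the members divide between these pools without the miR-137 mimic. These comparisons use the same control libraries as those above. In U343 13 of 39 members were higher and 5 lower in the PABP-bound RNA, beside 24.4% and 24.2% of all genes, with a median log2 difference of 0.19 against -0.02. In U251 2 of 38 were higher and 0 lower by edgeR, beside 7.87% and 6.14%, with 11 at an unadjusted p under 0.05, 5 higher in DESeq2 and medians of 0.11 and -0.01. The U251 counts rose without either RIPSeq control replicate, in fits that leave a lone library in that group, and the shares of all genes there were not compared. Of the 37 members tested in both lines, 20 had the same sign, and the share of all genes with the same sign was not counted.

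SLC25A23 had the largest difference of the members called higher in either line. In U343 it was at 41.2 and 42.6 CPM in total RNA and 101 and 100.1 CPM in PABP-bound RNA (log2 difference 1.26, edgeR adjusted p = 2.43e-05), and in U251 at 12.5 and 13.5 CPM against 44.3 and 55.4 CPM (1.94, adjusted p = 0.0242). SLC25A10 was the other U251 member, at 39.1 and 36.1 CPM against 165 and 112 CPM (1.88, adjusted p = 0.0299), and had -0.03 in U343. Without a filter on low counts the U251 adjusted p-values were 0.0917 for SLC25A23 and 0.0871 for SLC25A10, and without RNASeq control replicate 1 or 2 they were 0.431 to 0.519. Without RIPSeq control replicate 1 or 2 the U251 differences were 2.10 or 1.69 for SLC25A23 and 1.58 or 2.05 for SLC25A10.

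Also higher in the PABP-bound RNA of U343 were SLC25A35 (0.97, edgeR adjusted p = 0.00545), SLC25A42 at 11.8 and 10.6 CPM against 19.3 and 22.3 CPM (0.89, adjusted p = 0.000674) and SLC25A22 at 53.3 and 53.1 CPM against 88.9 and 95.7 CPM (0.79, adjusted p = 0.000192). Lower were SLC25A27 at 11.8 and 12.5 CPM against 5.55 and 5.71 CPM (-1.11, adjusted p = 0.000244), SLC25A37 at 27.8 and 27.2 CPM against 12.5 and 13.9 CPM (-1.06, adjusted p = 0.000152) and SLC25A25 (-0.36, adjusted p = 0.00473). The groups of these members were separate. SLC25A23 and SLC25A25, paralogues of one transport activity, were thus on opposite sides in U343.

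**Figure D5:**
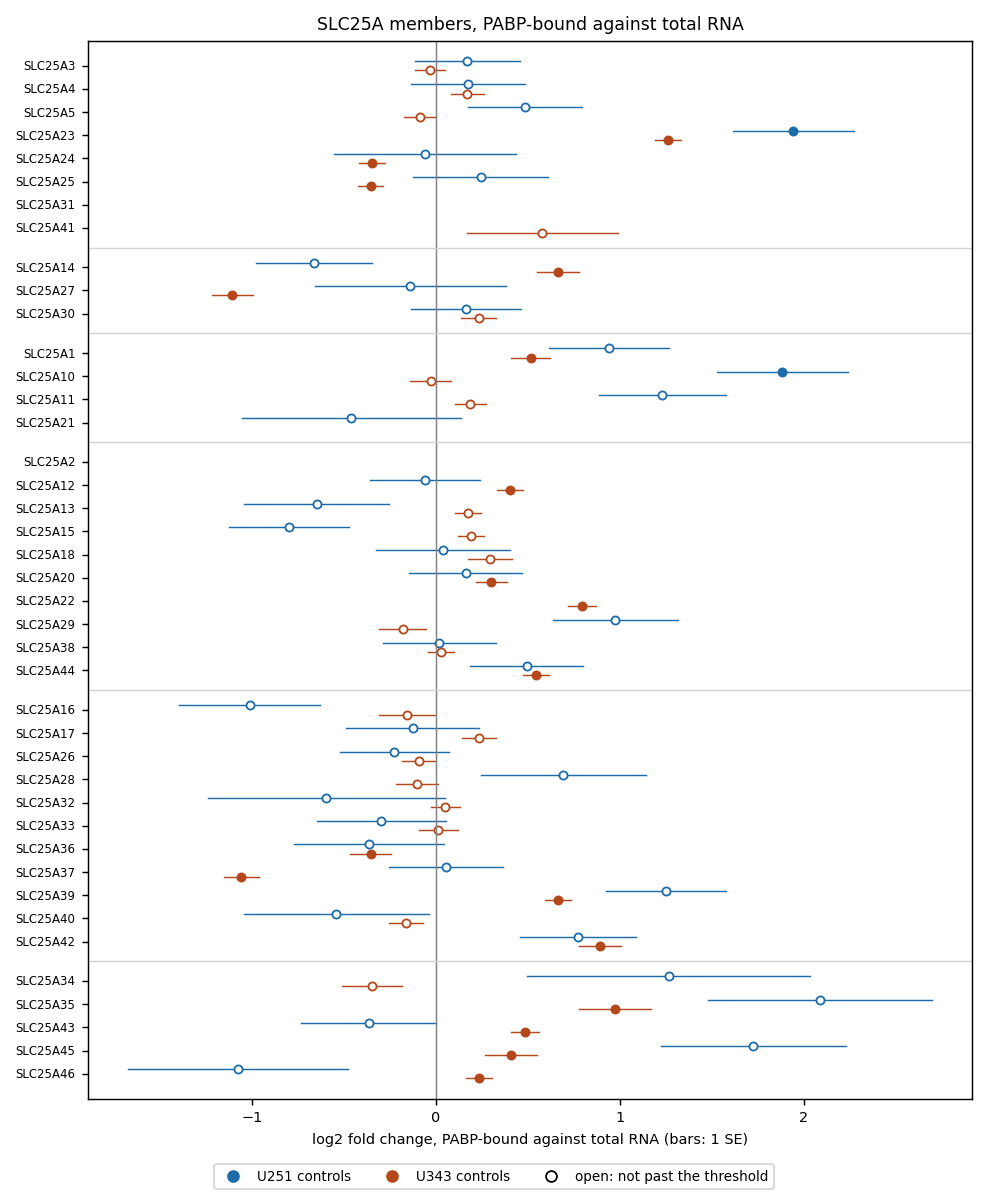
The log2 difference between PABP-bound and total RNA of the control-transfected cells is plotted for members tested in U251 and U343, with calls marked. SLC25A23 lies at 1.94 and 1.26, and SLC25A37 and SLC25A27 lie at -1.06 and -1.11 in U343.

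Whether the effect of miR-137 differed between assays or lines was tested with interaction terms in edgeR. Between RIPSeq and RNASeq 0 of 39 members passed in U251 (0.134% of all genes did) and 0 of 39 in U343 (0.00649%), with 6 and 9 members at an unadjusted p under 0.05 and 2 and 1 called by DESeq2. The U251 count rose without U251 RIPSeq control replicate 1 or 2, and the U343 count without U343 RNASeq miR-137 replicate 2. Such fits leave a lone library in a group, and the shares of all genes there were not compared. Between the lines, 17 of 39 members passed in RNASeq, beside 25.2% of all genes, and 0 of 39 in RIPSeq, beside 3.28%, where 8 had an unadjusted p under 0.05 and DESeq2 called 4. The RIPSeq count also rose without U251 RIPSeq control replicate 1 or 2. Since line and kit cannot be told apart, these differences belong to either. The shares of all genes given here belong to the adjusted edgeR calls only, and not to the counts at an unadjusted p or in DESeq2.

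One of the 17, SLC25A21, had 2 and 3 reads against 0 and 0 in U343 RNASeq, so its difference has no value. For the others the RNASeq change was more negative in U343 for 9 members and more positive for 7. Among well counted members SLC25A37 differed most in the negative direction, with a difference of -1.44 (U343 minus U251), and SLC25A43 and SLC25A15 in the positive direction, at 1.37 and 1.22. SLC25A27 (-1.69), SLC25A35 (-1.77) and SLC25A45 (-1.61) rest on 9 to 21 reads per U251 RNASeq library. SLC25A5, lower in both lines, differed by -0.89. SLC25A20, which was called in opposite directions, differed by 1.00 (edgeR adjusted p = 0.0106).

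Lists of other mitochondrial transport genes were read from the same fits, and no list was tested. The shares of all genes called lower and higher were 29% and 28.7% in U251 RNASeq and 27.8% and 28.5% in U343 RIPSeq. They were 11.7% and 8.31% in U343 RNASeq and 0.263% and 0.944% in U251 RIPSeq. The genes of the carrier import machinery (TOM and TIM subunits and AGK) numbered 13, of which 7 were lower and 1 higher in U251 RNASeq, 9 lower and 2 higher in U343 RIPSeq, 1 lower and 0 higher in U343 RNASeq, and 0 called by edgeR in U251 RIPSeq (0 at an unadjusted p under 0.05). Carriers under other symbols gave 3 lower and 2 higher of 7 in U251 RNASeq, 3 lower and 0 higher of 6 in U343 RIPSeq, and 0 in the other experiments, again with 0 at an unadjusted p under 0.05. The voltage-dependent anion channels and the pyruvate carrier subunits gave 2 lower of 3 in U251 RNASeq, 2 of 5 in U343 RNASeq, 5 of 5 in U343 RIPSeq and, by edgeR, 0 of 3 in U251 RIPSeq (1 at an unadjusted p under 0.05). VDAC1 and VDAC2 were analysed in U343 only.

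Of these lists BRP44L, now named MPC1 and a subunit of the mitochondrial pyruvate carrier, alone was called in the same direction in 3 experiments. VDAC1 and VDAC2, analysed in U343 only, could not reach that number. BRP44L was at 18.7 and 20.2 CPM in the U251 RNASeq controls and 4.69 and 5.33 CPM after miR-137. It was at 42.6 and 45.8 CPM against 13.0 and 14.2 CPM in U343 RNASeq, and at 56.7 and 53.3 CPM against 13.9 and 11.4 CPM in U343 RIPSeq. These were falls of 3.88-, 3.24- and 4.35-fold. In U251 RIPSeq it was at 16.4 and 23.5 CPM against 5.17 and 4.27 CPM (log2 change -2.08, edgeR adjusted p = 0.0686), and in each experiment the groups were separate.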

How the data were processed

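RNA of 16 libraries of U251 and U343 cells was analysed in groups of 2 taken from the labels. Reads were mapped by the authors to hg18 using RMAP, and a single super-transcript per RefSeq gene was the unit of counting. The deposited values are raw read counts without normalization. How reads with several mapping places were counted is not given in the sources used here, and an additional U251 replicate named in the study's methods was not analysed here. One duplicated line of the U251 tables (SLC35E2) was dropped.

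Each whole table was fitted in edgeR 4.0.16 (R 4.3.3; quasi-likelihood F test, TMM, filterByExpr, Benjamini-Hochberg adjustment over all genes tested, threshold 0.05), and SLC25A rows were then read from the fit. SE is the log2 change divided by the square root of F. The study's Fisher rule was run beside it, mirrored to call rises as well. Alternatives were DESeq2 1.42.0, upper-quartile scaling, other filters, the replicate number as a block, both assays of a line in 1 fit (8 libraries), an odds ratio over 1.5 or TMM totals in the Fisher rule, and fits without each library. In the last, the arm has a lone library that is assumed to vary like the other group. Tables and figures were made in Python 3.11.15, pandas 2.3.3 and matplotlib 3.10.9.

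Tested on simulated counts with 200 genes changed 4-fold, the fit recovered 100% in U251 RNASeq (12864 genes), 77.5% in U251 RIPSeq (13844), 96.5% in U343 RNASeq (14930) and 99.5% in U343 RIPSeq (14726). False calls numbered 11, 5, 9 and 14 in that order. Genes with the fewest reads were not among those changed, and counts were drawn independently from the fitted trend of the spread. Few called genes and no library standing apart were thus simulated, unlike in the data.

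Members given in every library are SLC25A5, the 3 largest falls and rises called per experiment (all 4 pairs alike in direction, a mean of 50 reads or more in the higher group), the 3 most enriched and depleted in PABP-bound RNA with that minimum, those called by the Fisher rule and up to 3 per interaction test. Exon lengths were not used here, so the part of that rule on levels per length could not be applied. SLC25A4, SLC25A36, SLC25A43 and SLC25A45 were added to these after their values were seen. The single values of 1 member are not reported here, and it stays in the counts and medians. The members, lists and rule were chosen with earlier results of these data known. Intervals and overlaps are in hg18 as deposited, and sequences and pseudogene names are from RefSeq GRCh38.p14.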

Additional observations from a re-analysis of the deposited data

Results flagged for a closer look

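The change after miR-137 in RNASeq differed between the lines, by the edgeR interaction test at an adjusted p under 0.05, for the following members. Written as U343 minus U251 on the log2 scale, the difference was -1.77 for SLC25A35, -1.69 for SLC25A27, -1.61 for SLC25A45, -1.44 for SLC25A37, -0.90 for SLC25A12, -0.89 for SLC25A5, -0.82 for SLC25A36 and -0.79 for SLC25A44. It was 0.75 for SLC25A23, 1.00 for SLC25A20, 1.02 for SLC25A18, 1.05 for SLC25A14, 1.05 for SLC25A32, 1.22 for SLC25A15 and 1.37 for SLC25A43.

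For some further values every pair of libraries moved one way in one group and the other way in its counterpart, but the test of the difference did not pass. Those flagged are the RIPSeq change of SLC25A20 between lines (0.92, edgeR adjusted p = 0.0960) and the U343 change of SLC25A23 between assays (RIPSeq minus RNASeq -0.63, adjusted p = 0.196). The U251 changes of SLC25A14 (1.14, edgeR adjusted p = 0.138) and SLC25A45 (-2.55, adjusted p = 0.109) between assays were also of this kind. SLC25A45 had 9 to 47 reads per U251 library, and the list is not complete. Cell line and library kit cannot be told apart in the comparisons of lines.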

How the results depend on the processing

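Among the members that the naming rule chose, no log2 change that passed the threshold in a comparison changed sign in that comparison under the alternatives run, while several counts of calls moved. Changes that did not pass could turn, as for SLC25A40 in U251 RIPSeq and SLC25A28 in U343 RNASeq. With the Fisher rule at an odds ratio over 1.5, the members lower and higher were 4 and 5 in U251 RNASeq, 4 and 4 in U251 RIPSeq and 9 and 2 in U343 RIPSeq. With TMM totals 1 was higher in U251 RNASeq, and 2 lower and 1 higher in U251 RIPSeq. Fitting both assays of a line together gave 8 lower and 3 higher in U251 RNASeq, 6 and 3 in U251 RIPSeq and 13 and 5 in U343 RNASeq. With no filter beyond 1 read, 5 were higher in U251 RNASeq, 0 lower in U251 RIPSeq, 1 higher in U343 RNASeq and 0 higher in the U251 PABP comparison. DESeq2 gave 2 lower and 1 higher in U251 RIPSeq, 4 higher in U343 RNASeq, 5 higher in the U251 PABP comparison, 2 and 1 members differing between assays in U251 and U343 and 4 differing between lines in RIPSeq. With replicate numbers as a block, 1 was higher in U251 RIPSeq, 1 higher in U343 RNASeq, and 2 lower and 6 higher in the U251 PABP comparison, and the block moved no other count by over 1.5 times. Same-numbered libraries deviated together with correlations of 0.0647, -0.0763, 0.124 and 0.400 in U251 RNASeq, U251 RIPSeq, U343 RNASeq and U343 RIPSeq, and with 2 pairs and no labelled batch the numbers are not taken to pair the libraries. The cause of these changes was not tested. The shares of all genes called at these settings were not compared, so the counts show only how the calls of members move.

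Leaving out a library in turn, edgeR gave 11 to 16 members lower and 4 to 7 higher in U251 RNASeq, 0 to 24 and 0 to 16 in U251 RIPSeq, 0 to 15 and 0 to 8 in U343 RNASeq, and 15 to 16 and 5 to 6 in U343 RIPSeq. The ranges were 0 to 13 lower and 0 to 15 higher for PABP-bound RNA in U251, 4 to 5 and 10 to 11 in U343, 0 to 21 and 0 to 9 for the differences between assays in U251 and U343, and 8 to 20 and 0 to 24 for those between lines in RNASeq and RIPSeq. The Fisher rule gave 2 to 4 lower and 3 higher in U251 RNASeq, 1 to 4 and 2 to 5 in U251 RIPSeq, 4 and 1 to 2 in U343 RNASeq, and 5 to 7 and 1 to 2 in U343 RIPSeq. In U251 RNASeq the median over all genes moved from 0.02 to 0.16 with upper-quartile scaling and with no filter. SLC25A2 and SLC25A31 in both lines, SLC25A41 in U251 and SLC25A21 in U343 had too few reads for a comparison of miR-137 with control within the line.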
